A study of Mus musculus with 246 samples.

Results

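The clustered protocadherins are adhesion proteins of the neuronal surface encoded by 3 gene arrays, alpha, beta and gamma, that lie side by side on mouse chromosome 18. Members were taken by name, as every gene in the table that was called Pcdha, Pcdhb, Pcdhga, Pcdhgb, Pcdhgc or Pcdhac followed by a number and whose estimated counts summed to at least 100 over all libraries. Such a name was carried by 58 of 56691 genes and all 58 reached the sum, with sums from 3650 (Pcdhb1) to 1412615 (Pcdhgc5). They comprised 14 alpha, 22 beta and 22 gamma isoforms, the last made up of 12 of type A, 7 of type B and 3 of type C.

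Each alpha and gamma isoform has its own promoter and its own variable exon, which is spliced to constant exons shared by the whole array, and each beta isoform is encoded by a single exon. A neuron switches on a small, largely random selection of these promoters, a choice that involves DNA methylation and the insulator protein CTCF, and the resulting combination lets branches of the same cell recognise and avoid each other. The 5 C-type isoforms at the ends of the alpha and gamma arrays (Pcdhac1, Pcdhac2, Pcdhgc3, Pcdhgc4 and Pcdhgc5) are the exception, being controlled in a more regular, cell type dependent way.

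The samples were punches of 6 brain regions from 41 adult male mice of the outbred CD1 stock. The regions were the medial prefrontal cortex (mPFC), the anterior cingulate cortex (ACC), the shell of the nucleus accumbens (Nacc), the basolateral amygdala (BLA), the dorsomedial thalamus (DMT) and the ventral hippocampus (vHipp), and all 6 were labelled for every mouse, which gave 6 poly-A RNA-seq libraries per mouse. Control mice whose dams were injected with an empty phospholipid gel (Ctrl_Veh) were compared with mice raised under limited bedding and nesting, a model of early life adversity, whose dams received either the empty gel (ELA_Veh) or the gel with SAFit2, an inhibitor of the stress-related co-chaperone FKBP51 (ELA_SAFit2). The pups were exposed to SAFit2 through the milk, and there were no control mice with SAFit2. In each condition some brains were collected without a social encounter (NoInteraction, NI, 7, 7 and 7 mice in the order above) and others after 10 min with an unfamiliar conspecific (SocialInteraction, SI, 6, 7 and 7 mice). The labels name no litter, so mice of a group may be siblings.

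Library totals ranged from 20804247 to 43351424 estimated counts. The mouse number was checked with 60 genes outside the clusters that differed strongly between animals. In the Nacc 12 of 41 libraries resembled another mouse than the labelled one and in the other 5 regions none did. A further 4 libraries stood apart from the rest of their region, namely ACC of mice 61 and 89, Nacc of mouse 69 (also among the 12) and vHipp of mouse 21. The 12 Nacc libraries resembled each of the same 12 mice once, in every case a mouse of another group (7 of another condition, 8 of another set). These 15 libraries were kept under their labels, and the main results that rest on them are also given without them. The DMT and the Nacc carried their markers. Summed levels of the thalamic excitatory markers were 1232 counts per 1000000 (CPM) in the DMT and 18.1 to 49.2 in the other regions. Those of the striatal projection neuron markers were 2236 CPM in the Nacc and 46.0 to 1021 elsewhere. The basolateral amygdala markers did not set the BLA apart. They summed to 1403 CPM there, compared with 1992 in the ACC, 1762 in the mPFC and 1738 in the vHipp. The BLA punches also held choroid plexus markers, from 23.2 to 5711 CPM, and striatal projection neuron markers, from 359 to 2420 CPM. Olfactory bulb markers ranged from 8.84 to 364 CPM over the mPFC punches.

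The first question was how strongly each isoform was expressed, compared per length of transcript because longer transcripts collect more counts. Mean levels over all libraries were highest in the C-type isoforms, with 43.5 CPM per kb for Pcdhgc5, 23.8 for Pcdhgc4, 23.8 for Pcdhgc3 and 15.6 for Pcdhac2, while Pcdhac1 reached only 1.53. The median of the other isoforms was 1.62 CPM per kb in the alpha array, 1.54 in the beta array, 3.91 in gamma type A and 2.87 in gamma type B. The C-type isoforms other than Pcdhac1 therefore lay above all remaining members, of which Pcdhga9 was the highest.

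Within each array single isoforms differed widely. In the alpha array the isoform nearest to the C-types, Pcdha12, was highest with 4.54 CPM per kb and Pcdha8 lowest with 0.122, a ratio of 37.3. In the beta array Pcdhb9 was highest with 4.05 and Pcdhb1, the first of the array, lowest with 0.201. Among the gamma type A isoforms the level increased along the array (Spearman's rho over 12 isoforms 0.79), from 2.15 CPM per kb for Pcdhga1 to 6.59 for Pcdhga9 and 4.54 for Pcdhga12, with Pcdhga5 lowest at 1.02. No such order was seen in the alpha array (rho 0.13, 12 isoforms), and in the beta array it was weaker (rho 0.38, 22 isoforms). In gamma type B rho was 0.04 over 7 isoforms, but these include Pcdhgb8, which the annotation lists as a pseudogene. Pcdhgb8 is the last of its type and was lowest with 0.185, while Pcdhgb6 and Pcdhgb7 before it were highest with 5.35 and 5.08. The rho without Pcdhgb8 is not given, so whether type B lacks the order of type A was not settled. Reads from the shared constant exons and from nearly identical beta exons have to be divided between isoforms by the authors' quantification, and 83.3% of the members' values were not whole numbers compared with 12.1% of all values, so differences between close relatives are uncertain to that extent.

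The next comparison asked in which regions the isoforms were expressed. The sum over all members was lowest in the DMT, with 905 ± 42.0 CPM (SD, n = 41 mice), while the other regions ranged from 1141 ± 37.4 (vHipp) to 1252 ± 81.8 (Nacc). Each array had its own pattern. The alpha array was highest in the 2 cortical regions, the beta array in the Nacc, and the gamma array was lowest in the DMT. Summed alpha levels were 259 ± 17.8 CPM in the mPFC and 252 ± 14.1 in the ACC compared with 189 ± 14.0 to 208 ± 10.3 elsewhere. Summed beta levels were 202 ± 15.1 CPM in the Nacc compared with 145 ± 10.8 to 159 ± 10.4, and summed gamma levels were 552 ± 24.1 CPM in the DMT compared with 755 ± 36.3 to 861 ± 66.7. In punches of tissue, fewer cells of a type and less RNA per cell cannot be told apart. Neuron markers summed to 4781 CPM in the BLA and to 7432 in the ACC with the DMT between them at 5702, and oligodendrocyte markers to 5818 CPM in the DMT compared with 1716 to 3624 in the other regions; their part in the protocadherin levels was not tested.

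**Figure D1:**
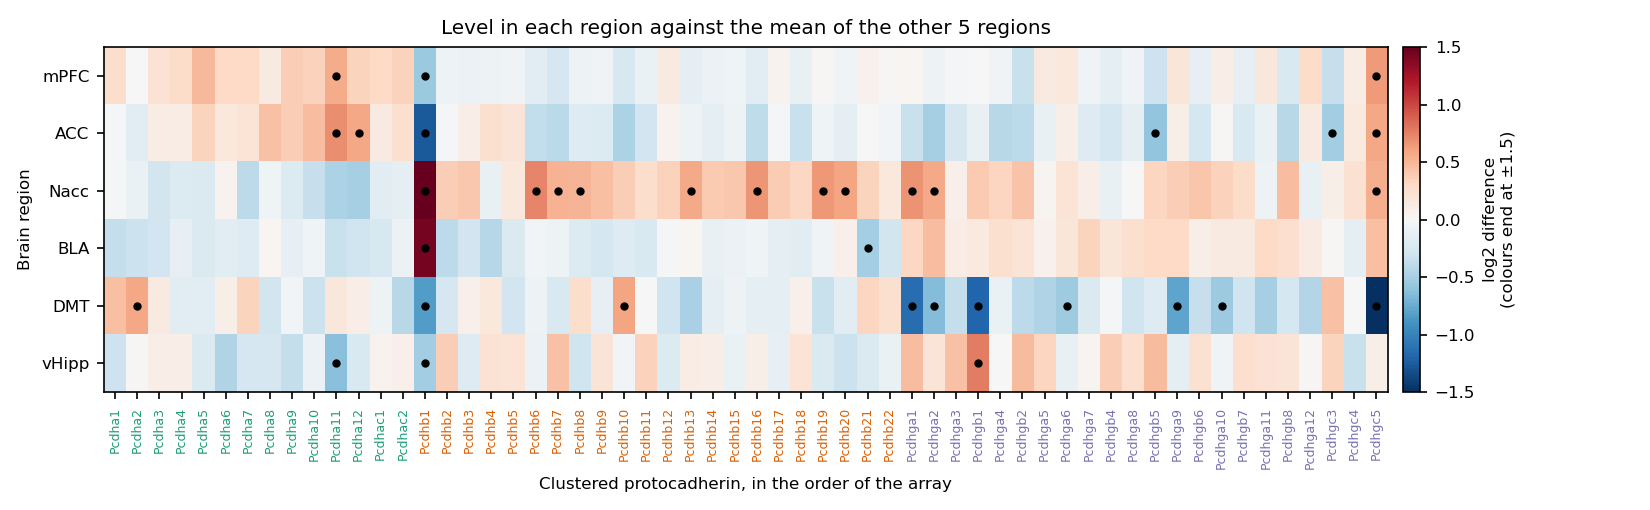
Log2 difference of each of the 58 members (in array order) between 1 region and the mean of the other 5, from edgeR with the mouse as a block. Colours end at 1.5 in either direction and black dots mark the members called at an adjusted p under 0.05 and a log2 difference over 0.5, of which the Nacc has 11, all higher, and the DMT 10, of which 8 are lower.

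Each region was then tested against the mean of the other 5 in edgeR's quasi-likelihood test with the mouse as a block, and a member was called where the Benjamini-Hochberg adjusted p over all 17382 genes tested was under 0.05 and the log2 difference over 0.5. All 58 members passed the filter on low counts. Since the reference is the mean of 5 regions on the log2 scale, a very low value in 1 region raises the difference of the others. In the DMT 2 members were higher and 8 lower, in a region where 17.9% and 17.7% of all genes were called in these directions. In the Nacc 11 were higher and none lower (10.2% and 11.1% of all genes). The other regions had few calls, with 2 higher and 1 lower in the mPFC (8.81% and 10.4%), 3 and 3 in the ACC (8.55% and 10.7%), 1 and 1 in the BLA (12.7% and 5.51%) and 1 and 2 in the vHipp (11.6% and 12.6%). The share of members called was thus below that of all genes in the mPFC, ACC, BLA and vHipp and in the DMT, and above it only for higher levels in the Nacc. Without the fold threshold 42 to 53 members passed in each region, where 75.1% (mPFC), 75.9% (ACC), 78.3% (Nacc), 75.1% (BLA), 86.4% (DMT) and 79.2% (vHipp) of all genes did.

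In the DMT the lower members were 7 gamma isoforms and Pcdhb1. Pcdhgc5, a C-type isoform known to bind GABA type A receptors, stood at 23.5, 47.3 and 60.7 CPM in the DMT (lowest, median and highest of 41 mice), while the lowest library of any other region had 104.9. No library of the DMT overlapped with any library of the other 5 regions. The mean was 5.0-fold lower than in the others, a log2 difference of -2.31 (SE 0.03, adjusted p = 1.5e-139), seen in 41 of 41 mice. The low level was present in every group of mice, with group means from 43.95 to 51.6 CPM.

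**Figure D2:**
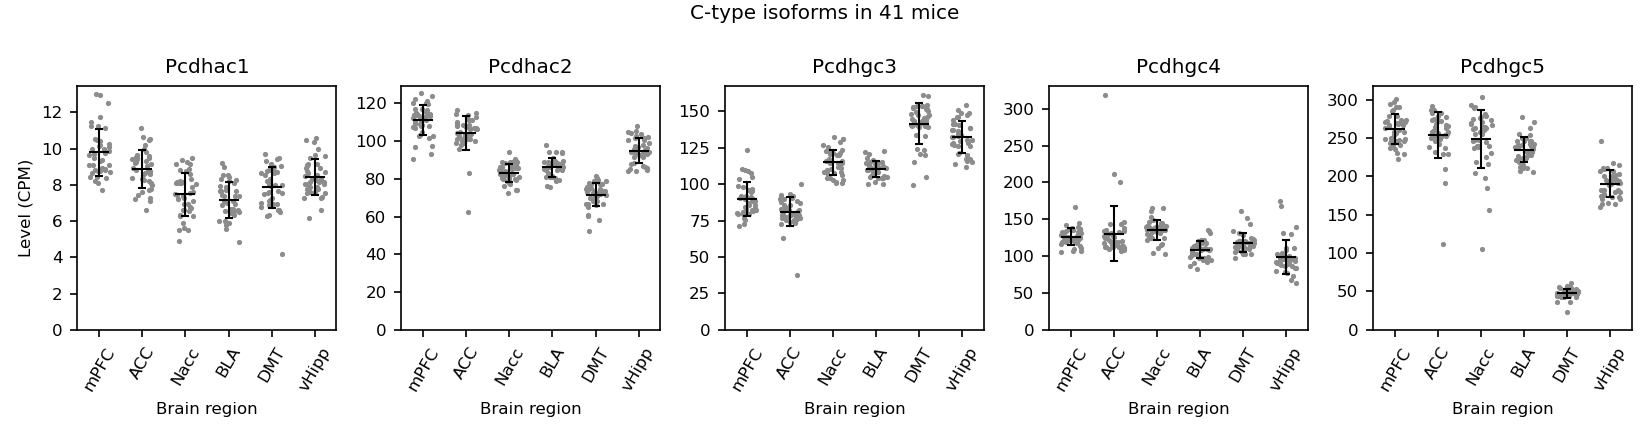
Level of the 5 C-type isoforms (CPM) in each region, 1 point per mouse, with mean and SD over 41 mice. Pcdhgc5 lies between 23.5 and 60.7 CPM in the DMT and above 100 in all other libraries, while Pcdhgc3 is highest in the DMT with a mean of 142.

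The other members lowered in the DMT were Pcdhb1 and the first and middle isoforms of the gamma array. Pcdhgb1 stood at 3.35, 5.79 and 7.88 CPM in the DMT. Its level was highest in the vHipp with 12.7, 18.4 and 22.6 CPM. These ranges did not overlap. The log2 difference of Pcdhgb1 was -1.20 for the DMT (SE 0.04, adjusted p = 2.7e-77) and 0.77 for the vHipp (SE 0.03, adjusted p = 2.2e-59), with 41 of 41 mice in that direction in both. Pcdhga1 followed with -1.14 in the DMT, where it had 3.46, 4.92 and 6.79 CPM compared with 8.94, 13.9 and 19.3 in the Nacc. Pcdhga9 (-0.79), Pcdhga2 (-0.65), Pcdhga10 (-0.55) and Pcdhga6 (-0.54) were called as well, each lower in all 41 mice. All 12 type A isoforms had a log2 difference below 0 in the DMT, with a median of -0.48, compared with -0.01 over all genes tested, and 11 of them had their lowest regional mean there.

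Both members called higher in the DMT lay outside the gamma array. Pcdhb10 stood at 4.99, 8.04 and 9.24 CPM in the DMT compared with 2.69, 4.28 and 5.66 in the ACC (log2 difference from the other regions 0.59), and Pcdha2 at 8.76, 11.3 and 19.8 compared with 4.86, 6.73 and 9.69 in the BLA (0.58). Pcdha2 was higher in 41 of 41 mice and Pcdhb10 in 40, although single libraries of the DMT overlapped with other regions.

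In the Nacc the higher members were mainly beta isoforms. Of 22 beta isoforms 8 were called higher (Pcdhb1, Pcdhb6, Pcdhb7, Pcdhb8, Pcdhb13, Pcdhb16, Pcdhb19 and Pcdhb20), 21 had a log2 difference above 0 and the median was 0.40. The largest difference belonged to Pcdhb1, a weakly expressed isoform with 0.264, 1.14 and 2.02 CPM in the Nacc and 0.0402, 0.169 and 0.552 in the ACC. It was 2.85-fold higher than in the mean of the other regions, with a log2 difference of 1.73 (SE 0.07, adjusted p = 2.6e-58). Pcdhb6 rose by 0.73, Pcdhb16 by 0.66 and Pcdhb19 by 0.65, each with at least 40 of 41 mice higher. These counts pair regions by the labelled mouse, which is in doubt for 12 of the Nacc libraries.

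The gamma isoforms Pcdhga1 (0.67), Pcdhga2 (0.57) and Pcdhgc5 (0.54) were also called higher in the Nacc, the last from a reference that the DMT lowers. The alpha isoforms did not follow, since 13 of 14 had a difference below 0 and the median of the array was -0.21. Pcdha12 came closest to a call with -0.50. Without the 12 Nacc libraries that resembled another mouse and the other doubted libraries, 10 of the 11 calls were kept, and Pcdhb8 fell under the fold threshold with 0.49.

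Pcdhb1 was the member with the widest range over regions, 5.74-fold between the Nacc and the ACC. It was the only member called in all 6 regions, higher in the Nacc and the BLA (0.439, 0.922 and 2.12 CPM, log2 difference 1.43, SE 0.08, adjusted p = 5.5e-43) and lower in the ACC (-1.25), the DMT (-0.84), the mPFC (-0.55) and the vHipp (-0.52). The narrowest range belonged to Pcdha4 with 1.32-fold. Of the 58 members 18 varied less than 1.5-fold between their highest and lowest regional mean and 6 more than 2-fold.

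In the cortical regions the alpha isoforms stood out. Pcdha11 had 5.73, 10.7 and 15.2 CPM in the ACC and 5.44, 10.1 and 14.99 in the mPFC, compared with 2.28, 4.83 and 8.03 in the vHipp. The ranges overlapped, but the log2 difference was 0.70 in the ACC (SE 0.04, adjusted p = 8.5e-37), 0.56 in the mPFC and -0.62 in the vHipp (SE 0.05, adjusted p = 1.8e-25), with 40 of 41 mice in that direction in the ACC and the vHipp. Pcdha12 was higher in the ACC (0.58) in 41 of 41 mice. The median over the 12 alpha isoforms without C-type was 0.30 in the mPFC and 0.27 in the ACC, compared with -0.01 and -0.02 over all genes, and 9 of the 12 had their highest mean in one of these regions.

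Lower in the ACC were Pcdhb1, Pcdhgb5 (-0.59) and the C-type isoform Pcdhgc3 (-0.53), the last 2 in 41 of 41 mice. In the BLA Pcdhb21 stood at 2.04, 3.56 and 5.24 CPM and was the only member called lower (-0.51, SE 0.04, adjusted p = 1.0e-28), again in 41 of 41 mice. The type A isoforms leaned upward in the BLA without a call, all 12 above 0 with a median of 0.24. The type B isoforms did so in the vHipp, all 7 above 0 with a median of 0.37 and only Pcdhgb1 called.

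The C-type isoforms differed from each other in their order over regions. Pcdhgc5 was highest in the mPFC (262 ± 19.8 CPM, n = 41), followed by the ACC (254 ± 30.6), Nacc (248 ± 37.9) and BLA (235 ± 16.3). None of these differed from its neighbour in this order past the threshold (without the doubted libraries Nacc and BLA did, adjusted p = 0.015). The ends of this series, mPFC and BLA, are not compared here, so the regions cannot be called alike. The vHipp (190.5 ± 17.5) and the DMT (47.6 ± 6.26) came last. Pcdhgc3, which is known to promote branching of cortical dendrites, had nearly the reverse order, with 142 ± 14.0 CPM (DMT), 132 ± 11.1 (vHipp), 115 ± 8.76 (Nacc), 110.4 ± 5.50 (BLA), 89.7 ± 11.6 (mPFC) and 80.9 ± 9.87 (ACC). All neighbours except Nacc and BLA (adjusted p = 0.091) differed.

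Pcdhac2, which is needed for the even spacing of serotonergic axons, was highest in the mPFC (median 113 CPM) and fell over the ACC (104 ± 9.12), vHipp (94.9 ± 6.60), BLA (86.2 ± 4.97) and Nacc (83.3 ± 4.84) to 71.7 ± 6.18 in the DMT, and every neighbour differed, the closest pair being BLA and Nacc (adjusted p = 0.048). Pcdhgc4, an isoform known for its role in neuronal survival, did not differ past the threshold between the neighbours Nacc (135 ± 13.7), ACC (131 ± 36.7) and mPFC (127 ± 11.7), and was lower in the DMT (118 ± 12.8), BLA (109 ± 12.1) and vHipp (98.8 ± 22.4). Without the doubted libraries the ACC level of Pcdhgc4 was 126 ± 21.7 CPM (n = 39), the mPFC came before it, and the Nacc (136 ± 14.9, n = 29) differed from the mPFC (adjusted p = 0.0086). Pcdhac1 ranged only from 7.16 ± 0.99 CPM in the BLA to 9.80 ± 1.30 in the mPFC.

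The C-type isoforms made up a large part of both arrays. In the gamma array they took 60.03% ± 1.56 (mPFC, n = 41), 61.7% ± 3.18 (ACC), 57.9% ± 1.45 (Nacc), 56.0% ± 1.35 (BLA), 55.6% ± 1.89 (DMT) and 54.4% ± 2.15 (vHipp) of the counts. The DMT was thus within the range of the other regions although its isoforms differed, since Pcdhgc5 took 8.59% ± 0.95 of gamma counts there compared with 24.6 to 33.5% elsewhere, and Pcdhgc3 took 25.6% ± 1.74 compared with 10.7 to 17.1%. In the alpha array the share was lowest in the DMT with 39.8% ± 1.43, compared with 44.9% ± 2.12 in the ACC to 49.7% ± 1.76 in the vHipp. It was lower in the DMT than in the mPFC, Nacc, BLA and vHipp in 41 of 41 mice and than in the ACC in 40.

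A single library stood far outside these ranges. In the ACC library of mouse 89 (Ctrl_Veh, SI) Pcdhgc4 reached 318 CPM and 53.1% of gamma counts, compared with 13.7 to 30.4% in the other 40 ACC libraries, while 35 members lay below and 2 above all other ACC libraries. Its astrocyte markers were also the lowest of the region, 2546 CPM compared with 3094 to 4364. Without this and the ACC library of mouse 61, the share of the C-types in the ACC was 61.3% ± 1.86 in the gamma array and 45.0% ± 1.504 in the alpha array.

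The variation between animals was examined next, because outbred mice can differ from each other in a gene throughout the brain. A test across all genes asked whether mice of the same condition and set differed in the same direction over the 6 regions (edgeR's quasi-likelihood test of all mouse coefficients). Of the 58 members 55 were called at an adjusted p under 0.05, compared with 53.2% of all genes tested. All 22 beta isoforms were called, as were 13 of 14 alpha and 20 of 22 gamma isoforms. The exceptions were Pcdhac2 (adjusted p = 0.196), Pcdhgc3 (adjusted p = 0.399) and the pseudogene Pcdhgb8 (adjusted p = 0.151). Without the Nacc 49 members were called (52.6% of all genes), and without the 15 doubted libraries 55 (56.2%).

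The size of this variation was described by the mouse share, the intraclass correlation of log2(CPM + 1) with the mouse as class after the mean of each region and group was removed. It is near 0 where mice do not differ and 1 where regions of a mouse carry no noise. Its median was 0.201 over the members and 0.0812 over all genes tested, and the median percentile of the members among all genes was 82.3. The members were not compared with genes of similar level. With no filter on low counts the median over all genes was 0.0661. The part of expression level in the difference was not tested. The median was 0.256 in the alpha array without C-types, 0.226 in the beta array and 0.151 in the gamma array. The C-type isoforms Pcdhgc3 (0.022) and Pcdhac2 (0.053) had the smallest shares of all members, followed by Pcdhgb8 (0.060) and Pcdhb1 (0.067).

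**Figure D3:**
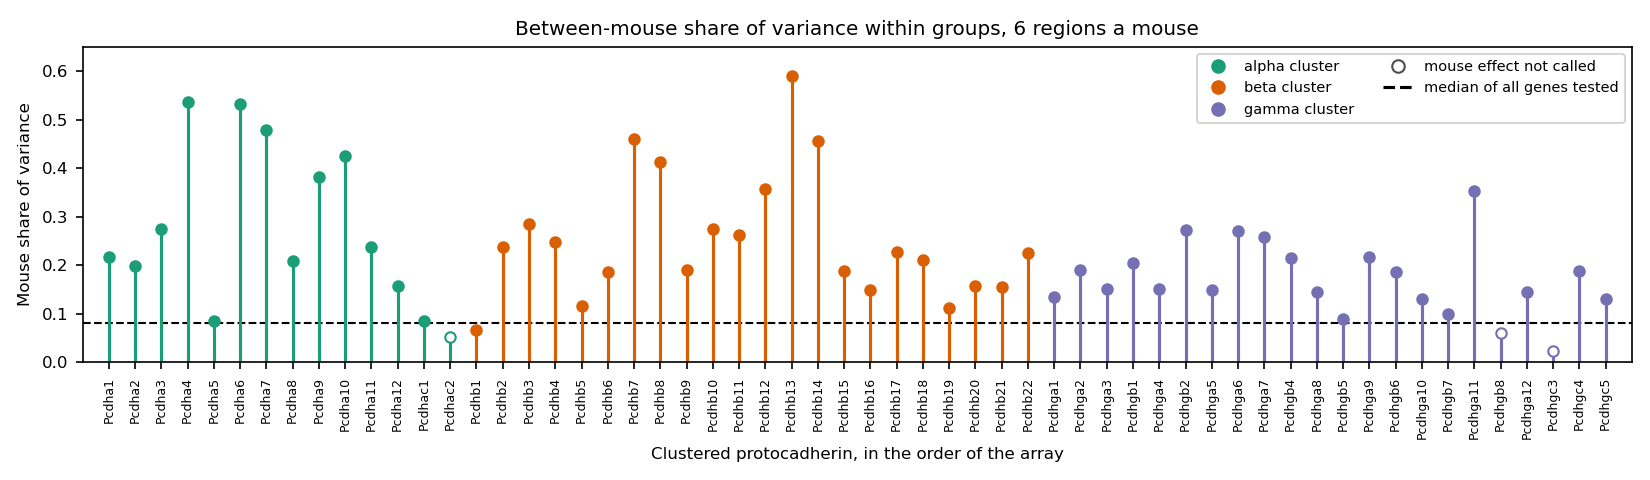
Mouse share of variance of each member in array order, filled where the mouse effect was called at an adjusted p under 0.05, with the median of all genes tested (0.0812) as a dashed line. Pcdhb13, Pcdha4, Pcdha6, Pcdha7, Pcdhb7 and Pcdhb14 have the largest shares, from 0.455 to 0.590.

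Pcdhb13 had the largest share, 0.590 (F = 9.22, adjusted p = 9.1e-25). Its mean level over the 5 regions other than the Nacc was 4.13 CPM in the lowest mouse, 5.65 in the median and 6.99 in the highest, 1.69-fold apart. The lowest mouse, number 17 (Ctrl_Veh, SI), lay below the median in all 5 regions, between 3.84 and 4.57 CPM, and had the lowest level of all 41 mice in the ACC and the BLA. Correlations of Pcdhb13 between pairs of these 5 regions over 41 mice had a median of 0.66 and ranged from 0.50 to 0.75. In the Nacc the library labelled mouse 17 was 1 of the 12 that resembled another mouse, and its Pcdhb13 level of 8.53 CPM was above the regional median of 8.14.

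The alpha isoforms Pcdha4, Pcdha6 and Pcdha7 came next. Pcdha4 had a share of 0.536 (F = 7.78, adjusted p = 6.3e-21) with 11.5, 15.6 and 19.3 CPM in the lowest, median and highest mouse. Pcdha6 had 0.533 (F = 8.23, adjusted p = 3.8e-22) with 5.18, 8.91 and 11.4 CPM, and Pcdha7 had 0.479 (F = 6.74, adjusted p = 6.2e-18) with 5.62, 8.89 and 11.7 CPM. Single mice were extreme in several regions. Mouse 97 (Ctrl_Veh, NI) had the lowest Pcdha6 level of all 41 mice in the mPFC, ACC, BLA and DMT and the fourth lowest in the vHipp, and mouse 63 (ELA_SAFit2, SI) had the highest Pcdha4 level in the mPFC, Nacc, BLA and DMT but lay at the median of the vHipp with 16.4 CPM. Mouse 17, the lowest in Pcdhb13, had the highest mean of both Pcdha6 and Pcdha7. Pcdha5, which lies between Pcdha4 and Pcdha6 in the array, had a share of 0.085.

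Of the beta isoforms Pcdhb7 followed with a share of 0.460 (F = 6.22, adjusted p = 2.2e-16; 5.75, 7.46 and 9.15 CPM) and Pcdhb14 with 0.455 (F = 5.81, adjusted p = 3.9e-15; 7.27, 9.18 and 10.6 CPM). A mouse that was high in 1 of these isoforms was not generally high in the others, as correlations between the 6 isoforms over 41 mice lay between -0.31 and 0.16. For each member the median was taken of its correlations over the 10 pairs of the 5 regions other than the Nacc. These medians were positive in 57 of 58 members, with a median of 0.23. Correlations of single pairs of regions went down to -0.43 (Pcdhac1). The points share the library scaling of each mouse's regions and the correlations are descriptions.

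**Figure D4:**
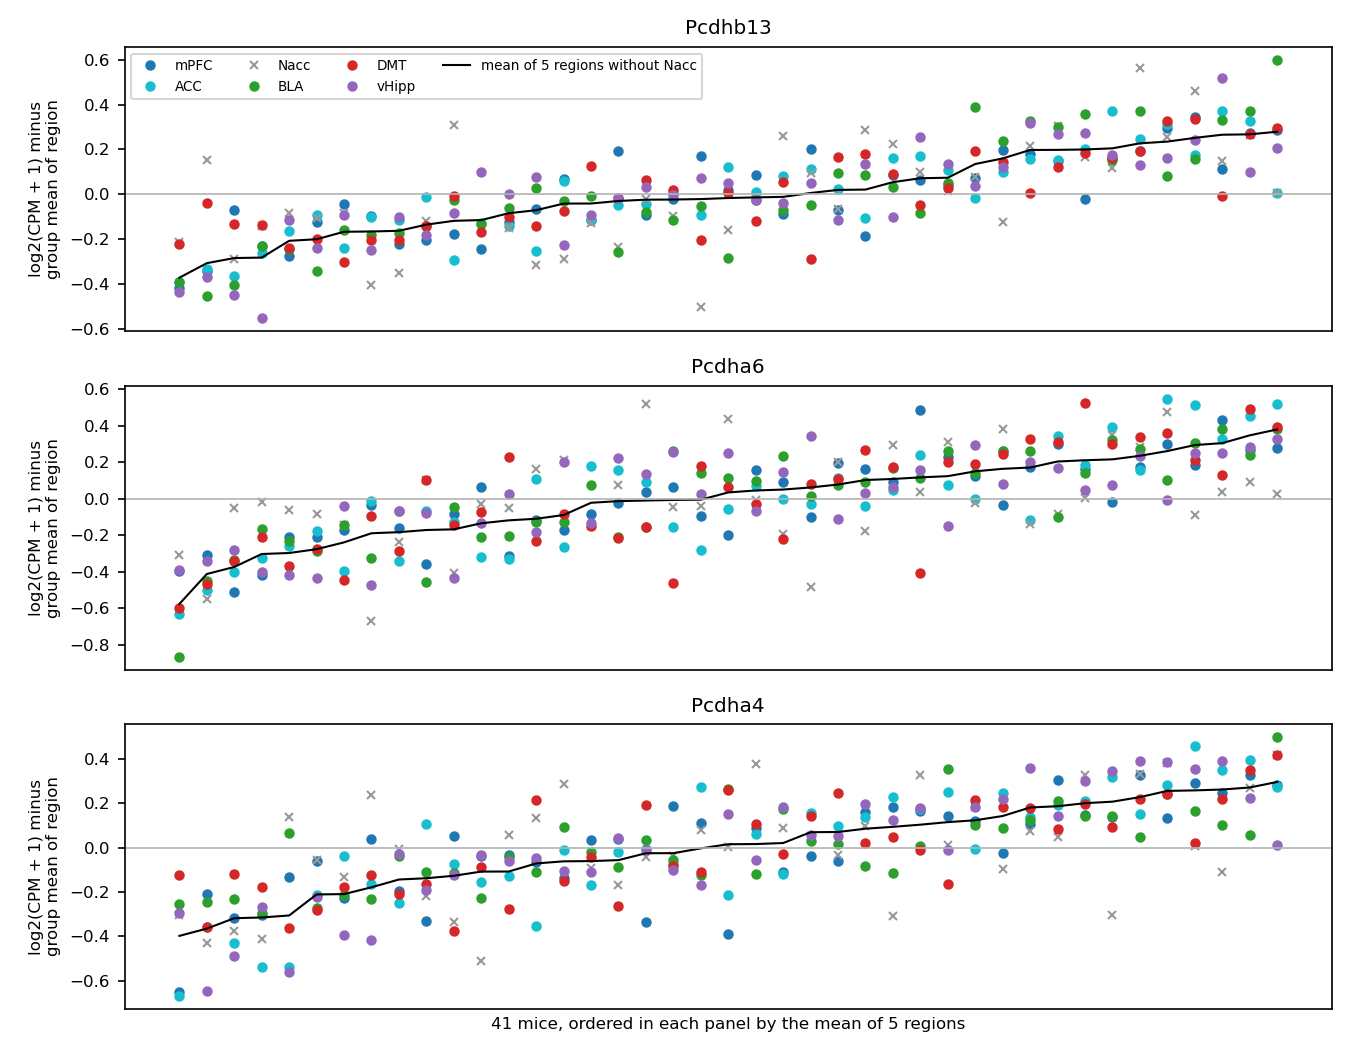
Deviation of each mouse from the mean of its group in each region, log2(CPM + 1), for Pcdhb13, Pcdha6 and Pcdha4, with mice ordered by their mean over the 5 regions other than the Nacc and Nacc values as crosses. Regions of the same mouse lie together, and several Nacc crosses lie away from the rest of their mouse.

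The Nacc offered a check that the member genes had not been used for. In the 29 Nacc libraries that resembled the labelled mouse, the deviation of a member correlated with the mean deviation of that mouse in the other 5 regions with a median of 0.35 over members, and 57 of 58 were positive. In the 12 libraries that resembled another mouse, the median was 0.14 with the labelled mouse and 0.34 with the mouse they resembled, and 37 of 58 members were higher with the latter. For Pcdha4 the correlation over these 12 libraries was -0.10 with the labelled and 0.51 with the resembled mouse, for Pcdha6 0.38 and 0.66, and for Pcdhb13 0.23 and 0.57. Pcdhb14 did not follow, with 0.15 and 0.01.

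Isoforms of the same array were then compared with each other over the 41 mice, using deviations averaged over the 5 regions other than the Nacc. Correlations between alpha isoforms took both signs, with a median of 0.03 over 91 pairs, 43 of them negative. In the beta array the median was 0.19 over 231 pairs and in the gamma array 0.16. Neighbours in the array were slightly closer, with medians of 0.15 in the alpha, 0.25 in the beta and 0.24 in the gamma array. The variance of the summed level over mice was 1.29 times the sum of the isoforms' own variances in the alpha array, 4.36 times in the beta array and 0.592 times in the gamma array. Isoforms that vary without correlation give a ratio of 1, and abundant isoforms weigh most in it. The ratios include the ACC library of mouse 89, in which Pcdhgc4 had 318 CPM compared with 106 to 211 in the other ACC libraries. They are not given without that library. All these correlations share the depth and the scaling of the libraries.

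A few pairs stood out at either end. Pcdhac2 and Pcdhgc5, C-types of different arrays, correlated with 0.73 (0.68 without the 3 libraries that stood apart in these regions), Pcdhgb6 and Pcdhgb7 with 0.71 (0.65) and Pcdhb16 and Pcdhb21 with 0.70 (0.70). The negative end was held by Pcdhgc4, whose correlation was -0.62 with Pcdhb15 (-0.57), -0.60 with Pcdhgc3 (-0.53) and -0.52 with Pcdhgc5 (-0.41), and which was negative with 50 of the 57 other members (48). The alpha isoforms Pcdha3 and Pcdha9 had -0.56 (-0.60). Alpha isoforms share constant exons with each other, as do gamma isoforms, and the quantification divides the reads of these exons between them. The part of this division in the negative correlations was not tested.

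Genes that act on or with the clusters were described by 3 lists. Among 20 chromatin factors known or proposed to act on the choice of promoters, such as Ctcf, the cohesin subunit Rad21 and the DNA methyltransferases, no gene was called in the mPFC, ACC, Nacc or BLA. In the DMT Tet3, an enzyme that oxidises methylated cytosine, was lower (58.02 CPM compared with 84.5 in the others, log2 difference -0.54), and in the vHipp the methyltransferase Dnmt3b was higher (1.32 compared with 0.884, 0.57). Among 20 signalling and membrane partners 2 were higher and 6 lower in the DMT, with a median of -0.30, and 4 were higher and none lower in the vHipp, while each of the other regions had at most 2 higher and 1 lower. The largest differences in the DMT were those of the receptor kinase Ret (71.8 compared with 8.78 CPM, 3.12) and of the protein kinase C gene Prkca (38.0 compared with 232 CPM, -2.55). Of 13 protocadherin family genes outside the clusters 1 was higher and 6 lower in the DMT (median -0.43) and 4 higher and 7 lower in the vHipp. The balance was the other way in the mPFC (4 higher and 0 lower), ACC (4 and 1) and BLA (5 and 1), with 3 and 2 in the Nacc. Of all genes 17.9% were called higher and 17.7% lower in the DMT, and 11.6% and 12.6% in the vHipp. Pcdh20 reached 202 CPM in the vHipp compared with 21.6 in the others (3.41). Cdhr1 in the mPFC had a mean of 34.1 CPM with an SD of 46.8. It is also among the olfactory bulb markers, whose sum ranged from 8.84 to 364 CPM over the mPFC punches (median 17.8). The part of olfactory bulb tissue in the Cdhr1 level was not tested. The mouse effect was called for 13 of 20, 11 of 20 and 6 of 13 genes of the lists, compared with 53.2% of all genes tested, with median mouse shares of 0.125, 0.082 and 0.082.

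One question of the study, whether early adversity or SAFit2 changed expression in the adult brain, was asked of the members. It was asked in each region and set and with the regions of a mouse summed. No member was called at an adjusted p under 0.05. The paper reports few genes at that threshold. It selected genes by fold change and a pattern score, which was not computed here. In the 36 comparisons of 2 conditions within 1 region and set (edgeR's quasi-likelihood test, all mice of a region in 1 fit) 0 to 2 genes of all those tested passed an adjusted p of 0.05, and the smallest adjusted p of a member was 0.181. At an unadjusted p under 0.05 there were 104 of 2088 member tests, 4.98% compared with 4.67% of all tests. The 18 tests of whether a condition effect differed between the sets called no member either (smallest adjusted p = 0.405). An unadjusted p under 0.05 was reached by 51 of 1044 member tests, 4.89% compared with 4.19% of all tests. In the condition comparisons the genes called were 0.00632% in each of 2 mPFC comparisons, 0.0126% in each of 2 Nacc comparisons and 0.00631% in 1 DMT comparison, and 0.0% in the rest. In the interaction tests they were 0.0253% (mPFC), 0.0382% and 0.00636% (ACC), 0.0441% (Nacc), 0.0313% (BLA), 0.0379% (DMT) and 0.0382% (vHipp), with 0.0% in the rest. DESeq2 called 0 members in the condition comparisons and 0 in the interaction tests, with 108 and 48 member tests at an unadjusted p under 0.05. The shares of all tests under DESeq2 are not given.

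In the Nacc these tests rest on group labels that are in doubt for 12 of 41 libraries. Without the 12 libraries no member was called in the 6 comparisons of conditions (0.0% of all genes). An unadjusted p under 0.05 was reached by 18 of 348 member tests, 5.17% compared with 3.19% of all tests. With them there were 24, 6.90% compared with 4.75%. The smallest adjusted p of a member was 0.629 where it had been 0.181. The 3 interaction tests of the Nacc gave 8 of 174 member tests without these libraries, 4.60% compared with 3.57% of all tests. With them there were 13, 7.47% compared with 5.61%. No member was called in either (at most 0.0192% of all genes without these libraries). Leaving out the libraries that stood apart gave 22 of 348 member tests of conditions in the ACC, 6.32% compared with 6.47% of all tests. With them there were 14, 4.02% compared with 6.53%. In the vHipp there were 18 of 348 without them, 5.17% compared with 4.49% of all tests. With them there were 22, 6.32% compared with 4.80%. Again no member was called (0.0% of all genes without these libraries).

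With the regions summed, so that each mouse counted once, 44 of 522 member tests reached an unadjusted p under 0.05 (8.43% compared with 5.26% of all tests), none was called at an adjusted p under 0.05 (0 to 1 gene was called in each of the 9 comparisons, at most 0.00575% of genes), and the smallest adjusted p of a member was 0.4664. DESeq2 also called 0, with 46 member tests at an unadjusted p under 0.05. The sums of 12 mice include a Nacc library that resembled a mouse of another group. Without the Nacc libraries 38 of 522 member tests reached an unadjusted p under 0.05 (7.28% compared with 5.46% of all tests), none was called, and the smallest adjusted p of a member was 0.436. The 3 conditions share mice across comparisons, so these tests are not independent of each other. The smallest p in the mice without interaction belonged to Pcdhga3 for ELA_Veh against Ctrl_Veh, with 12.8, 15.5 and 17.2 CPM in ELA_Veh compared with 15.4, 17.7 and 19.9 in Ctrl_Veh (log2 difference -0.18, SE 0.05, adjusted p = 0.4664). For ELA_SAFit2 against ELA_Veh it belonged to Pcdhga2, with 10.5, 11.9 and 13.1 CPM compared with 9.01, 9.99 and 11.1 (0.25, SE 0.07, adjusted p = 0.530). These groups overlapped in both genes. Without the Nacc libraries the differences were -0.20 for Pcdhga3 (adjusted p = 0.436) and 0.19 for Pcdhga2 (adjusted p = 0.982).

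In the mice with interaction the smallest p of a member belonged to Pcdhb10 for ELA_Veh against Ctrl_Veh (log2 difference 0.17, adjusted p = 0.753) and for ELA_SAFit2 against ELA_Veh (-0.18, adjusted p = 0.898), and to Pcdha2 for ELA_SAFit2 against Ctrl_Veh (0.21, adjusted p = 0.884). ELA_SAFit2 against Ctrl_Veh without interaction gave Pcdhgb7 (-0.09, adjusted p = 0.9999). Averaged over both sets, they were Pcdha12 for ELA_Veh against Ctrl_Veh (-0.10, adjusted p = 0.649), Pcdhb15 for ELA_SAFit2 against ELA_Veh (-0.10, adjusted p = 0.672) and Pcdha2 for ELA_SAFit2 against Ctrl_Veh (0.14, adjusted p = 0.835). The tests of a difference between the sets called no member (0.0403% of genes at most) and were smallest in p for Pcdhga3 (0.21), Pcdhga2 (-0.27) and Pcdhb8 (-0.23), with adjusted p from 0.921 to 0.9995. The precision was such that the median standard error of a member was 0.06 on the log2 scale with regions summed and 0.10 to 0.13 within a region, so the 95% interval of a typical member reached 0.12 and 0.19 to 0.24 to either side.

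**Figure D5:**
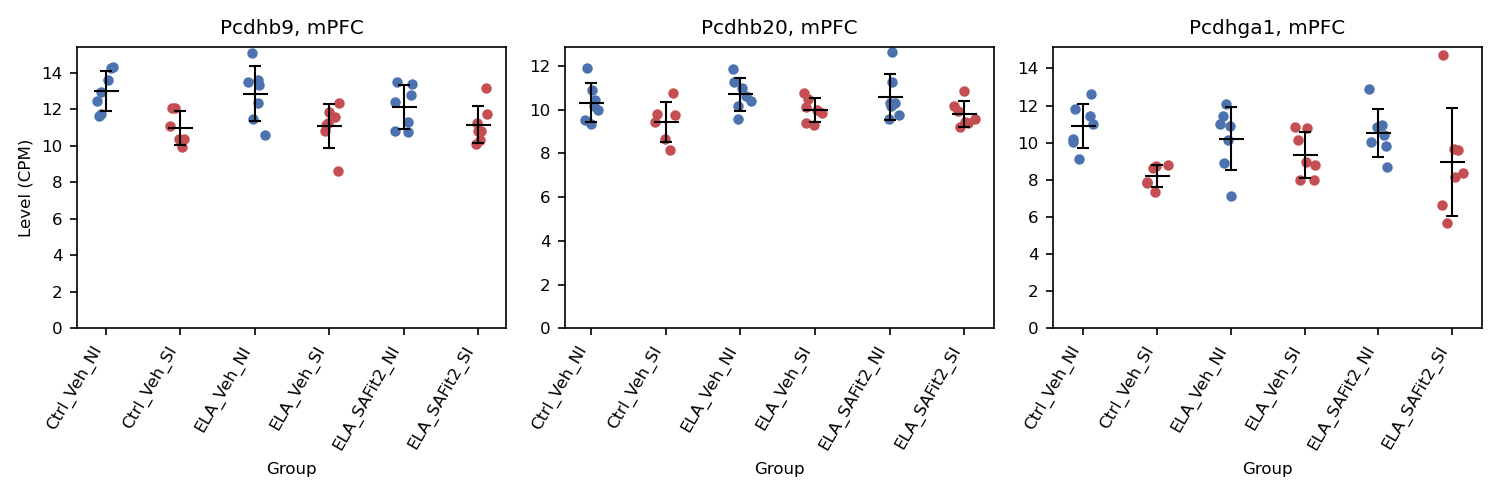
Level (CPM) of Pcdhb9, Pcdhb20 and Pcdhga1 in the mPFC of each mouse by group, with mean and SD, in blue without and in red with social interaction. Medians over 21 mice without and 20 mice with interaction are 12.8 and 11.1 CPM for Pcdhb9, 10.3 and 9.78 for Pcdhb20 and 10.9 and 8.70 for Pcdhga1, with overlapping ranges.

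The last comparison asked what 10 min of social interaction changed, averaged over the 3 conditions. In the mPFC 3 members were called, all lower after the interaction, in a region where 7.34% of all genes were called. Pcdhb9 had 8.63, 11.1 and 13.1 CPM with interaction (n = 20) compared with 10.6, 12.8 and 15.1 without (n = 21). Its log2 difference was -0.19 (SE 0.04, adjusted p = 0.0051). Pcdhga1 had 5.69, 8.70 and 14.7 CPM compared with 7.15, 10.9 and 12.9 (-0.25, SE 0.08, adjusted p = 0.034) and Pcdhb20 had 8.17, 9.78 and 10.9 compared with 9.37, 10.3 and 12.6 (-0.12, SE 0.04, adjusted p = 0.047). In all 3 the sets overlapped. The median log2 difference of the members in the mPFC was -0.04 and that of all genes -0.01. Median oligodendrocyte markers were 1512 CPM with and 1705 without interaction in the mPFC and median neuron markers 7224 and 6989, and their part in these differences was not tested.

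None of the other regions had a called member, with 4.22% (ACC), 0.0% (Nacc), 1.54% (BLA), 1.63% (DMT) and 1.22% (vHipp) of all genes called. Pcdhb9 had log2 differences of -0.07 (ACC), -0.04 (Nacc), -0.07 (BLA), -0.07 (DMT) and -0.08 (vHipp), with adjusted p from 0.379 to 0.9995, and whether the mPFC differed from these regions was not tested. Without the 12 Nacc libraries that resembled another mouse its Nacc difference was -0.08 (SE 0.06, adjusted p = 0.864). With regions summed 2 members were called lower (8.68% of all genes called), Pcdhb9 (11.1, 11.95 and 12.7 CPM compared with 10.98, 12.8 and 14.4; -0.08, SE 0.02, adjusted p = 0.022) and Pcdhb19 (9.27, 9.99 and 11.5 compared with 9.33, 10.7 and 12.2; -0.09, SE 0.03, adjusted p = 0.046). Without the Nacc libraries Pcdhb9 had -0.10 (adjusted p = 0.012) and Pcdhb19 -0.10 (adjusted p = 0.046), and Pcdhga10 and Pcdhgb7 were called as well, both lower (10.8% of all genes called).

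The ACC libraries that stood apart changed 1 call. Without mice 61 and 89, both with interaction, Pcdhac2 was called higher in the ACC with a log2 difference of 0.08 (SE 0.02, adjusted p = 0.047, 8.69% of all genes called). With all libraries the difference was 0.04 (SE 0.04, adjusted p = 0.689).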

How the data were processed

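Total RNA of the punches was made into stranded poly-A libraries. The authors deposited a table of estimated counts per gene for 246 libraries, made with salmon according to its name, and their processing notes name STAR, DESeq2 and the build GRCm39, without versions. Estimated counts were rounded to whole numbers. As in the study's methods, genes had to be protein-coding, to reach 100 counts in sum and to be counted in 6 or more libraries. Types and lengths came from GENCODE and RefSeq annotation of another build, so no coordinates or sequences are given, and Pcdhgb8 was kept as a member. CPM used TMM scaling (edgeR 4.0.16 in R 4.3.3).

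Region contrasts were fitted on all libraries with the mouse as a block, since the same number marks the same animal over regions in the labels, and the study's methods state no such test. Nearly all mPFC libraries carry names from another number series than the libraries of the ACC, Nacc and BLA. The labels do not say what the series stands for. Region and number series cannot be told apart in the mPFC contrasts. Conditions and social interaction were tested within each region and on counts summed over the 6 regions of a mouse, in models with 6 groups. Calls needed a Benjamini-Hochberg adjusted p under 0.05 and, for regions, a log2 difference over 0.5. Alternatives were DESeq2 1.42.0, relative log expression size factors, no filter, no block, no Nacc, mice without interaction only, another pseudocount for the mouse share and, chosen after seeing the data, leaving out 15 doubted libraries. Libraries were called apart at a robust z score of their correlation below -8, a limit also set after seeing the data. Scripts were tested on simulated data.

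The members and lists were chosen with earlier results of these data known. Genes named are the 5 C-types, the highest and lowest of each array per length, the members of largest difference in each region, the 6 of largest mouse share, every member called for condition or interaction or else that of smallest p in each summed comparison, and 2 genes per list. Other members were named after their values were seen. Each library comes from a separate mouse within a region, as does each sum over regions. The p-values of conditions and social interaction therefore measure the spread between mice. The region contrasts and the mouse effect were fitted with a coefficient for each mouse. Their p-values rest on the spread left between libraries within mice after the region means.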

Additional observations from a re-analysis of the deposited data

Results flagged for a closer look

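In 102 groups of 6 or 7 mice the highest or lowest mouse was compared with the rest, for the members called after social interaction and for the C-type shares of both arrays in each region. A mouse lay apart by Dixon's criterion in 8 groups, where chance gives about 1 in 20 groups. For the C-type share of alpha counts these were mouse 89 of Ctrl_Veh with interaction in the ACC (35.8%, the others 42.9 to 46.8%), mouse 15 of ELA_SAFit2 without interaction in the mPFC (43.4%, others 46.3 to 48.3%), mouse 49 of Ctrl_Veh with interaction in the Nacc (45.0%, others 47.9 to 49.1%) and a mouse of ELA_Veh without interaction in the BLA (45.6%, others 47.2 to 48.1%). For the C-type share of gamma counts they were mouse 89 in the ACC again (78.1%, others 60.5 to 63.3%), mouse 39 of ELA_SAFit2 without interaction in the ACC (66.8%, others at most 61.9%) and mouse 9 of Ctrl_Veh without interaction in the vHipp (58.3%, others 52.5 to 54.6%). Pcdhb9 in the mPFC was low in mouse 59 of ELA_Veh with interaction, with 8.63 CPM compared with 10.8 to 12.3 in the others.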

How the results depend on the processing

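Without the fold threshold the members called were 42 (mPFC), 51 (ACC), 53 (Nacc), 50 (BLA), 53 (DMT) and 50 (vHipp). Without the Nacc libraries 1 member was called in the mPFC (3 with them) and 6 in the vHipp (3 with them). With only the mice without interaction 1 was called in the BLA (2 with all mice). The reference regions or the mice differ by construction. The shares of all genes called in these fits are not given, so the changes cannot be read as particular to the members. Social interaction gave 1 member with regions summed when no filter on low counts was used (Pcdhb9, share of all genes not given). It gave 4 without the Nacc libraries (also Pcdhb19, Pcdhga10 and Pcdhgb7, 10.8% of all genes called). In single regions it gave 1 without the doubted libraries of the ACC, Nacc and vHipp (Pcdhac2 in the ACC, 8.69% of all genes called there). Weighted per length, the C-type share of the alpha array was 44.3% (mPFC), 42.6% (ACC), 45.9% (Nacc), 45.6% (BLA), 37.7% (DMT) and 47.4% (vHipp), lower in every region, with the DMT lowest. The fit that dropped the mouse block gave the same counts of members per region (3, 6, 11, 2, 10 and 3), so the pairing of regions by mouse changed no count.

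No called result for a named member changed direction under any alternative run, and 11 values for single members fell under a threshold. Without the doubted libraries 4 passed one, namely Pcdhac2 after social interaction in the ACC and the differences between Nacc and BLA for Pcdhac1 (0.10) and Pcdhgc5 (0.09) and between Nacc and ACC for Pcdhgc4 (0.13), and the difference of Pcdhgc4 between ACC and mPFC, not called, changed sign. Without the Nacc these were Pcdha11 (0.48) and Pcdhb1 (-0.22) in the mPFC, Pcdha12 in the ACC (0.50), Pcdhb21 in the BLA (-0.45) and Pcdhb1 in the vHipp (-0.18). With only the mice without interaction they were Pcdhgc3 in the ACC (-0.49), Pcdhb8 in the Nacc (0.44) and Pcdhb21 in the BLA (-0.48). Pcdhb8 in the Nacc also fell to 0.49 without the doubted libraries, and with no filter Pcdhb20 in the mPFC had adjusted p = 0.067 and Pcdhb19 with regions summed adjusted p = 0.051. The mouse effect was called for 54 members by DESeq2, 55 with relative log expression factors, 54 with no filter and 47 with only the mice without interaction. The shares of all genes called under these settings are not given here. Changes in these counts therefore cannot be read as particular to the members.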
